A study of Mus musculus with 12 samples.

Results

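The genes of the major histocompatibility complex (MHC, called H2 in the mouse) and of antigen presentation were examined in developing tibialis anterior (TA) muscle, a shin muscle that lifts the foot. The group holds every protein-coding gene whose mouse symbol starts with H2-, together with *B2m*, *Tap1*, *Tap2*, *Tapbp*, *Nlrc5*, *Cd74* and *Ciita*. This gave 47 of the 55450 genes in the count table. Of these, 35 belong to class I (30 H2 genes and 5 accessory genes) and 12 to class II (10 H2 genes and 2 accessory genes). RNA came from wild-type (WT) mice of the 129Pas background (129SvPas in the study's methods), with no transgene or treatment in the labels, at 3 ages: E18.5 (late gestation), 2 wks and 7 wks. There were 4 mice at each age, and each of the 12 libraries came from 1 mouse. The muscle was sequenced whole, so the RNA of fibres, vessels, connective tissue and resident immune cells was pooled within a library. The libraries were made to follow splicing as muscle matures after birth, and here the gene counts were used. In the current annotation (GRCm39) the H2 genes, *Tap1*, *Tap2* and *Tapbp* lie on chromosome 17, *B2m* on chromosome 2, *Nlrc5* on chromosome 8, *Ciita* on chromosome 16 and *Cd74* on chromosome 18.

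MHC molecules show peptide fragments to T cells. Class I molecules consist of a heavy chain from an H2 gene and beta-2-microglobulin from *B2m*, and they carry peptides of proteins made inside the cell. The TAP transporter (*Tap1*, *Tap2*) moves these peptides into the endoplasmic reticulum, tapasin (*Tapbp*) helps to load them, and *Nlrc5* is a transcriptional activator of class I genes. Most cell types can make class I, and resting muscle fibres are known for low levels of it. Class II molecules pair an alpha with a beta chain (*H2-Aa* with *H2-Ab1*, *H2-Ea* with *H2-Eb1*) and carry peptides of proteins taken up from outside. The invariant chain *Cd74* escorts them, H2-DM exchanges the peptides, H2-O modulates H2-DM, and *Ciita* is the master activator of class II transcription. Class II is mainly made by dendritic cells, B cells and macrophages.

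Promoter sequences are shown for 5 genes that rose strongly or are abundant, 3 of class I and 2 of class II, and for *H2-M5*, the one member that fell. Promoter windows from RefSeq (build GRCm38.p6) were matched to 33 of the 47 members. *H2-Ab1*, *H2-Ea*, *H2-Q1*, *H2-Q5*, *H2-T5*, *H2-T9*, *H2-T10*, *H2-T13*, *H2-T15*, *H2-T24*, *Cd74*, *Ciita*, *Nlrc5* and *Tap2* had no entry. Each sequence below runs 5′ to 3′ on the strand of its gene, with 250 bases before and 30 after the annotated start, and capitals mark matches to the motifs searched.
H2-D1 (chr17:35262844-35263123, plus strand): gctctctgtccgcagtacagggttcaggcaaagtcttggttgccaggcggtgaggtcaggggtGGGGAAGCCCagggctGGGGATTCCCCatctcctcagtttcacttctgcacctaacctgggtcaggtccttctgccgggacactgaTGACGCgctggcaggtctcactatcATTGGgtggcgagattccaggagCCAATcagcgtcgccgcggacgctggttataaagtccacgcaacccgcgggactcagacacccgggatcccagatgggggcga
H2-K1 (chr17:34000318-34000597, minus strand): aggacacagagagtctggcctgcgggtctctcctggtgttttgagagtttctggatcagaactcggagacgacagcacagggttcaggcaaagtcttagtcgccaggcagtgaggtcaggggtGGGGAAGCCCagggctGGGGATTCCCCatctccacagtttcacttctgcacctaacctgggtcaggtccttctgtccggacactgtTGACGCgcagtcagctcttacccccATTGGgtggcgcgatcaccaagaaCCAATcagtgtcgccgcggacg
B2m (chr2:122147437-122147716, plus strand): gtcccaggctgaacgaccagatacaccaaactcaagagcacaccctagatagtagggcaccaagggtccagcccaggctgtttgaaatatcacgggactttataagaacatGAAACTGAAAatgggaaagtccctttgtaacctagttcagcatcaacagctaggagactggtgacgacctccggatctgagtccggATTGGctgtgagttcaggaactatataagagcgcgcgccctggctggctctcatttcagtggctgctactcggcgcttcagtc
H2-Aa (chr17:34287794-34288073, minus strand): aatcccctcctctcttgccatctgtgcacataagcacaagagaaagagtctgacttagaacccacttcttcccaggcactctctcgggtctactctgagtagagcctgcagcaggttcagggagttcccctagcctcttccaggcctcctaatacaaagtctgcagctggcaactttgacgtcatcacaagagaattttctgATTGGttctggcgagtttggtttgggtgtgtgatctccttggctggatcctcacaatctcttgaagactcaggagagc
H2-Eb1 (chr17:34305617-34305896, plus strand): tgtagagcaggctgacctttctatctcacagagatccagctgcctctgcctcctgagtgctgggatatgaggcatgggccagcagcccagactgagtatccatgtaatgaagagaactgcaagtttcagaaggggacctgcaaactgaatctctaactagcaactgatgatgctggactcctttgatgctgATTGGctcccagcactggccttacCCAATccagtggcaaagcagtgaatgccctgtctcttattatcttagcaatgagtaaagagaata
H2-M5 (chr17:36989504-36989783, minus strand): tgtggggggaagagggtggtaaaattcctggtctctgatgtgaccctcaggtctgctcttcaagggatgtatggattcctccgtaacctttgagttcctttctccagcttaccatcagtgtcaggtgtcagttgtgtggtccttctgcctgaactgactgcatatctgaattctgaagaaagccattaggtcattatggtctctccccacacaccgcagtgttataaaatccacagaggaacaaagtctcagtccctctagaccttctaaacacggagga

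The 5 motifs were searched on both strands in windows of 250 bases before to 50 after the start. ATTGG, the inverted CCAAT core of the Y box, was found in 30 of the 33 members (90.9%) and in 41.1% of all 27025 genes with a window. All 8 class II genes with a window held it, and so did all 6 H2-M10 genes, which had no reads in any library. It was not found in *H2-M5*, *H2-Q10* or *H2-T3*. TGACGC, a core of the class I site alpha, was in *H2-D1*, *H2-K1*, *H2-M3* and *H2-Q4* (8.37% of all genes). In *H2-D1*, *H2-K1* and *H2-M3* it lay before the start on the strand of the gene. The *H2-Q4* match lay on the opposite strand at position 31 after the start. GGGGA and CCC with any 2 bases between them, a kappa B type motif, was in *H2-D1*, *H2-K1*, *H2-Q6* and *H2-Q7* (1.89% of all genes), and in *H2-D1*, *H2-K1* and *H2-Q6* a pair of its matches on opposite strands overlapped. GAAA repeated after any 2 bases, as in interferon-stimulated response elements, was in *B2m*, *H2-T22* and *H2-T23* (3.99% of all genes). TTCNNNGAA, as in gamma-activated sequences, was in *H2-DMb2*, *H2-M3* and *H2-M11* (9.55% of all genes). A match describes the letters only.

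The libraries held 63018968 to 123449246 reads counted on genes, and the 18 pairs of libraries of the same age differed by more than sampling noise (chi-square per degree of freedom of 31.2 to 524). The composition of the libraries changed with age. The share of reads on the 20 most abundant genes was 13.7 to 16.1% at E18.5, 33.2 to 35.6% at 2 wks, then 36.4 to 37.8% at 7 wks. TMM scaling, which corrects for such shifts, was therefore used, and levels are given as TMM-scaled CPM, the counts of a gene relative to the scaled size of its library. Of the marker genes of muscle fibres, 8 of 8 were higher at 2 wks than at E18.5, with a summed level of 12427 to 22008 CPM at E18.5 and 113783 to 143821 CPM at 2 wks.

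Between E18.5 and 2 wks, 23 of the 27 antigen presentation genes that could be tested rose and 1 fell with TMM scaling. With total count scaling 13 rose and 3 fell, while 2550 of all 19276 genes tested rose and 11923 fell. Changes are given as log2 fold changes (a value of 1 is a doubling) with standard errors (SE) from edgeR's quasi-likelihood test, and genes were called changed at a Benjamini-Hochberg adjusted p under 0.05 over all 19276 genes tested. A filter on low counts left 27 of the 47 members to test, 18 of class I and 9 of class II. A gene that was abundant at 1 age only could pass the filter for that reason, as *H2-Q5* did, with 1 to 8 reads per library at E18.5 and 20 to 77 at 7 wks. Of the 18 class I genes tested, 14 rose and 1 fell by 2 wks, while 65.7% of all genes were called, 31.5% higher and 34.2% lower. Of the 9 class II genes tested, 9 rose. The median log2 fold change was 1.56 for class I and 2.28 for class II, against −0.09 for all genes tested. Among the genes with at least 10 reads in every library, 11 of 15 class I genes and 9 of 9 class II genes were called higher. Over all genes 4863 of 14582 were.

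From 2 to 7 wks fewer members changed. Of the class I genes tested, 7 rose and 1 fell, against 27.5% of all genes called (13.5% higher and 13.9% lower), with a median log2 fold change of 0.63 (all genes, −0.03). Of the 9 class II genes, 0 were called by edgeR, 0 had an unadjusted p under 0.05, and DESeq2 called 0. Their median log2 fold change was 0.53. The class I count was sensitive to single libraries and ran from 1 to 10 called with 1 library left out. The largest moves were downward. The count was 5 called without E18.5 replicate 4, 2 without 2 wks replicate 1, 1 without 2 wks replicate 2 and 4 without 2 wks replicate 4. It was 4 without 7 wks replicate 1, 4 without 7 wks replicate 2 and 5 without 7 wks replicate 4. Calls over all genes also fell in these fits, to between 3472 (without 2 wks replicate 1) and 5062 (without E18.5 replicate 4). With all libraries 5296 genes were called. Without E18.5 replicate 1, 1 class II gene was called in this interval (*H2-Eb1*, log2 fold change 0.71, adjusted p = 0.0459, edgeR).

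Over the whole span from E18.5 to 7 wks, 15 class I genes rose and 1 fell, and 9 of 9 class II genes rose (71.4% of all genes were called, 34.3% higher and 37.1% lower). With at least 10 reads required in every library, 24 members were left, *H2-Q5* and *H2-M5* not among them. All 24 kept their direction, and the same ones were called. Over all genes 5246 of 14582 were then called higher and 5296 lower. The ranges of the 4 libraries at each age were then compared. At 2 wks, 11 class I and 8 class II genes lay wholly above E18.5 (28.9% of all genes tested did, and 32.4% lay wholly below), and at 7 wks 15 class I and 9 class II genes did (30.2% of all genes above, 33.3% below). At 7 wks *H2-T22* and *H2-T10* lay wholly above their levels at 2 wks and *H2-M5* lay wholly below, while the other 24 members tested overlapped (17.3% of all genes lay wholly above and 16.4% wholly below). The difference between both intervals was also tested. The first change exceeded the second for 7 of 18 class I genes and 6 of 9 class II genes (38.4% of all genes were called, 21.6% in this direction). Without 2 wks replicate 4 the class II count was 2 of 9. In that fit 5273 of 19893 genes were called over all genes, against 7398 of 19276 with all libraries.

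**Figure D1:**
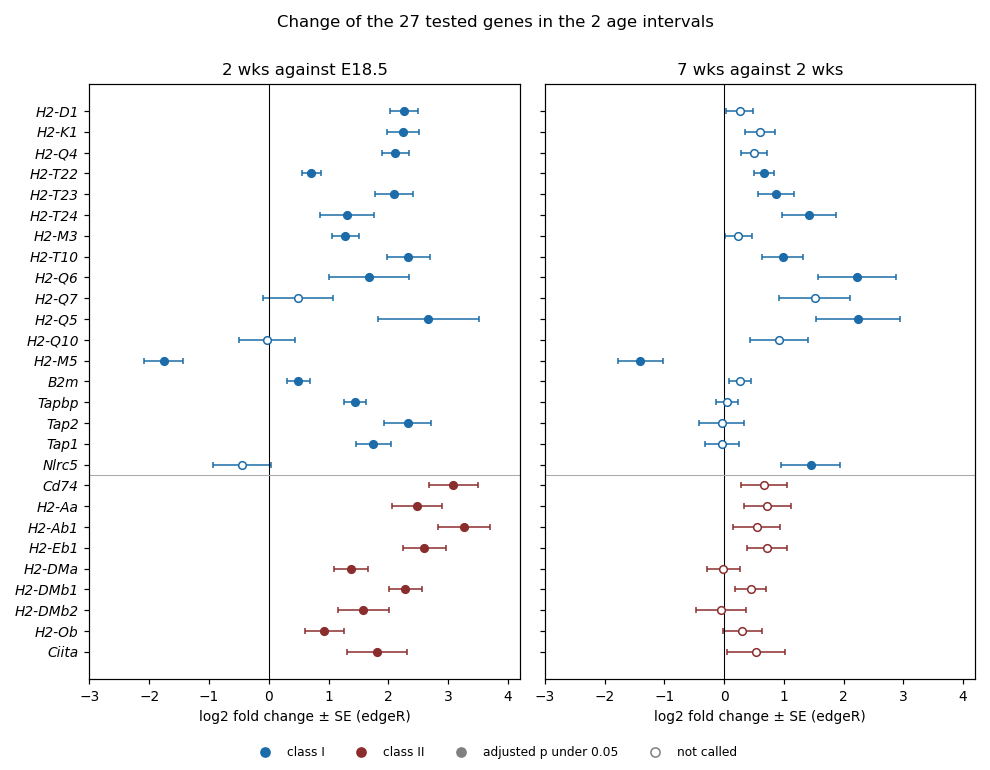
Log2 fold change from edgeR on the x axis, with bars of 1 SE, for the 27 tested genes (class I above the line, class II below) from E18.5 to 2 wks and from 2 to 7 wks, where filled points had an adjusted p under 0.05. In the first interval 23 genes rose and 1 fell, and in the second interval 7 rose and 1 fell, none of the 9 class II genes among them.

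Scaling decided some of these directions. With scaling to the total count in place of TMM, the median of all genes moved from −0.09 to −1.02 between E18.5 and 2 wks, from −0.03 to −0.38 between 2 and 7 wks, and from −0.09 to −1.37 over the whole span. The class I genes then called higher and lower were 8 and 3, 2 and 1, and 9 and 2 in these comparisons. Of all 19276 genes tested, 2550 and 11923, 948 and 5392, and 2291 and 13297 were called higher and lower. For class II, 5 of 9 genes were called higher by 2 wks and 5 of 9 over the whole span. The first change was then above 0 but not called for *H2-M3*, *H2-Q5*, *H2-Q6*, *H2-T24*, *H2-DMa*, *H2-DMb2*, *H2-Ob* and *Ciita* (0.02 to 1.72). The median GC content of the transcripts was 55.6% for the class I and 53.4% for the class II genes tested, against 50% for all genes tested. With a trend in GC content removed, 11 class I and 9 class II genes rose by 2 wks, 11 class I and 1 class II gene rose from 2 to 7 wks, and the first change exceeded the second for 2 class I and 2 class II genes. Over all 19276 genes tested the same counts were 5207, 3250 and 2983.

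*H2-D1* and *H2-K1* encode the classical class I heavy chains. *H2-D1* stood at 9.23, 18.9, 18.0 and 17.7 CPM in the 4 libraries at E18.5, at 62.2, 63.6, 102 and 78.5 CPM at 2 wks, and at 76.4, 91.5, 111 and 88.0 CPM at 7 wks. Every library at 2 and 7 wks was above every library at E18.5, and the 2 wks and 7 wks libraries overlapped. It rose 4.80-fold by 2 wks (log2 fold change 2.26, SE 0.24, adjusted p = 3.09e-06, edgeR with Benjamini-Hochberg adjustment). The later change was 0.26 (95% interval −0.22 to 0.75, adjusted p = 0.416), and the first change was the larger by 2.00 (adjusted p = 0.00155).

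*H2-K1* stood at 5.14, 8.58, 11.8 and 11.4 CPM at E18.5, at 33.5, 34.9, 62.7 and 44.5 CPM at 2 wks, and at 60.7, 64.6, 80.7 and 60.6 CPM at 7 wks. All libraries after birth were above those at E18.5, and 1 library at 2 wks (62.7 CPM) reached into the range of the 7 wks libraries. The log2 fold change was 2.25 (SE 0.26, adjusted p = 8.14e-06, edgeR) by 2 wks and 0.60 (95% interval 0.06 to 1.15, adjusted p = 0.0922) from 2 to 7 wks. The later change passed the threshold without E18.5 replicate 1 (adjusted p = 0.0357), without 2 wks replicate 3 (0.82, adjusted p = 0.0337) and with the GC trend removed (0.83, adjusted p = 0.010). In the current annotation 24.2% of the exon bases of *H2-D1* and 26.8% of those of *H2-K1* are shared with a long noncoding RNA on the opposite strand, and whether the counting used strand is not stated in the sources used here. Heavy chain genes are also close copies of each other, so that reads can be assigned to the wrong copy or left uncounted.

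**Figure D2:**
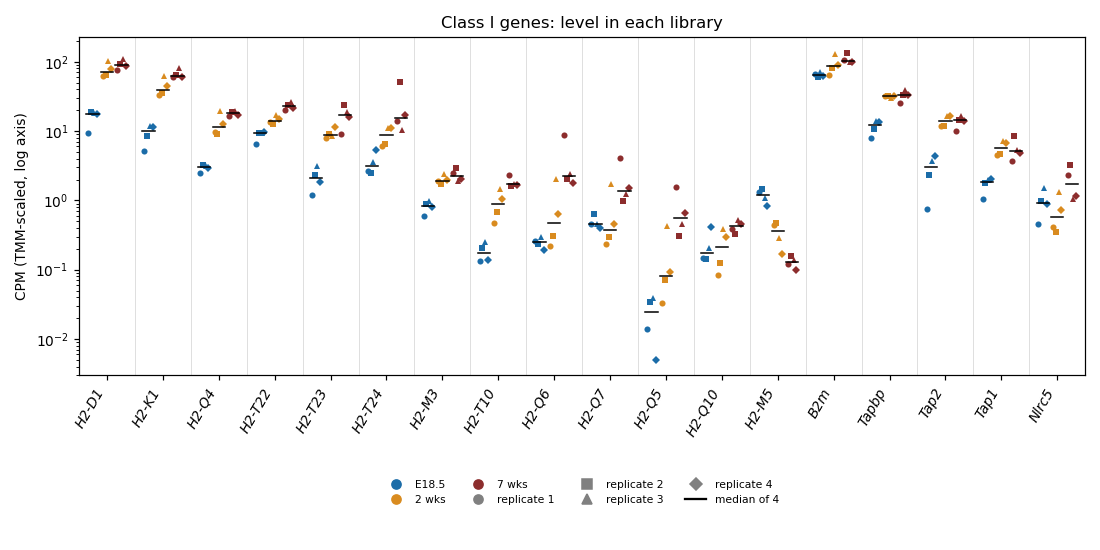
TMM-scaled CPM on a log axis for the 18 class I genes tested, with 1 point per library, colour for age, shape for replicate and a bar at the median of 4. *H2-D1* and *H2-K1* stood wholly higher at 2 and 7 wks than at E18.5, *B2m* lay between 61.0 and 136 CPM throughout, and *H2-M5* fell at each step.

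Among the other heavy chains, *H2-Q4* lay between 2.52 and 3.24 CPM at E18.5, between 9.06 and 19.7 CPM at 2 wks, and between 16.5 and 19.8 CPM at 7 wks. Only the libraries at E18.5 stood apart from the rest. It rose by 2.11 on the log2 scale by 2 wks (SE 0.22, adjusted p = 3.52e-06, edgeR), and the later change of 0.50 did not pass (adjusted p = 0.0977), though it did without 2 wks replicate 3 (0.79, adjusted p = 0.00722).

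*H2-T22*, whose product is a ligand of gamma delta T cell receptors, rose in both intervals. Its levels were 6.49, 9.53, 9.49 and 9.77 CPM at E18.5, 13.4, 12.7, 16.9 and 14.8 CPM at 2 wks, and 20.1, 24.1, 26.1 and 21.6 CPM at 7 wks. The 3 ages did not overlap. With TMM scaling it rose by 0.71 (SE 0.16, adjusted p = 0.00161, edgeR) and then by 0.67 (SE 0.16, adjusted p = 0.00877), but with total count scaling the first change was −0.23 (adjusted p = 0.222) and the second 0.32 (adjusted p = 0.147). The test of the difference between both changes gave 0.05 (95% interval −0.56 to 0.65). *H2-T22* was the 1 gene of the 8 class I genes called from 2 to 7 wks that was called in each of the 12 fits with 1 library left out. Of its exon bases, 29.8% are shared with *A930015D03Rik* on the opposite strand.

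*H2-T23* encodes Qa-1, which presents peptides to receptors of natural killer cells. It stood at 1.18, 2.36, 3.17 and 1.87 CPM at E18.5, at 8.0, 9.08, 8.39 and 11.3 CPM at 2 wks, and at 9.07, 23.7, 18.8 and 15.7 CPM at 7 wks. All libraries after birth exceeded those at E18.5, and 1 library at 7 wks lay within the range at 2 wks. The rise by 2 wks was 2.10 (SE 0.31, adjusted p = 5.97e-05, edgeR). The later rise of 0.87 (adjusted p = 0.0458) was close to the threshold and was not called without any 1 of 8 libraries, namely E18.5 replicates 2 and 4, 2 wks replicates 1, 2 and 3, and 7 wks replicates 2, 3 and 4. The values were then 0.66 to 0.90 (adjusted p of 0.0501 to 0.152), with the lowest without 7 wks replicate 2.

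*H2-T24* stood at 2.66, 2.45, 3.57 and 5.35 CPM at E18.5, at 6.09, 6.54, 11.2 and 11 CPM at 2 wks, and at 13.9, 51.7, 10.3 and 17.2 CPM at 7 wks. Replicate 2 at 7 wks was far above every other library. The gene rose by 1.31 by 2 wks (SE 0.45, adjusted p = 0.019, edgeR), which was not called without E18.5 replicate 1 (1.20, adjusted p = 0.0537) or replicate 2 (1.17, adjusted p = 0.0506). From 2 to 7 wks it rose by 1.42 (adjusted p = 0.0304). That change was 0.66 (adjusted p = 0.153) without 7 wks replicate 2, 1.27 (adjusted p = 0.0948) without 2 wks replicate 1 and 1.30 (adjusted p = 0.0864) without 2 wks replicate 2.

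*H2-T10*, the other gamma delta receptor ligand, was low but rose in both intervals. It lay between 0.132 and 0.249 CPM at E18.5, between 0.470 and 1.48 CPM at 2 wks, and between 1.60 and 2.31 CPM at 7 wks, with no overlap of the ages. The log2 fold changes were 2.33 (SE 0.36, adjusted p = 7.37e-05, edgeR) and 0.98 (SE 0.34, adjusted p = 0.045). The second was not called without any 1 of E18.5 replicate 4, 2 wks replicates 1, 2 and 4, and all 4 replicates at 7 wks (0.75 to 1.05, adjusted p of 0.0503 to 0.128). *H2-M3*, which presents peptides that start with N-formylmethionine, lay between 0.603 and 0.970 CPM at E18.5, between 1.71 and 2.38 CPM at 2 wks and between 1.90 and 2.97 CPM at 7 wks. It rose by 1.28 by 2 wks (SE 0.23, adjusted p = 0.000254), and the later change was 0.24 (95% interval −0.25 to 0.73).

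The neighbouring genes of the Q region, *H2-Q5*, *H2-Q6*, *H2-Q7* and *H2-Q10*, varied widely between mice of an age. *H2-Q6* and *H2-Q7* encode Qa-2, a nonclassical class I protein that can be anchored to the membrane by a lipid. *H2-Q6* stood at 0.263, 0.232, 0.297 and 0.195 CPM at E18.5, at 0.218, 0.309, 2.01 and 0.627 CPM at 2 wks, and at 8.67, 2.02, 2.42 and 1.80 CPM at 7 wks. Replicate 3 at 2 wks and replicate 1 at 7 wks were far above the other libraries of their age. The gene rose by 1.68 by 2 wks (SE 0.66, adjusted p = 0.0374, edgeR), but by 0.66 without 2 wks replicate 3 (adjusted p = 0.324), and the call was also lost without any 1 of the 4 replicates at E18.5 (1.58 to 1.78, adjusted p of 0.0545 to 0.0795). From 2 to 7 wks it rose by 2.23 (adjusted p = 0.0214), which became 1.39 (adjusted p = 0.0946) without 7 wks replicate 1, 1.92 without 2 wks replicate 1, 1.95 without 2 wks replicate 2 and 2.13 without 2 wks replicate 4 (adjusted p of 0.0531 to 0.0641). Over the whole span it rose by 3.91 (adjusted p = 0.000183), and by 3.08 without 7 wks replicate 1.

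*H2-Q7* showed the same libraries high. It stood at 0.457, 0.637, 0.454 and 0.404 CPM at E18.5, at 0.235, 0.299, 1.74 and 0.457 CPM at 2 wks, and at 4.09, 0.978, 1.26 and 1.50 CPM at 7 wks. Its change by 2 wks was 0.48 (95% interval −0.78 to 1.74) and turned to −0.55 without 2 wks replicate 3, to −0.49 with total count scaling and to −0.56 with the GC trend removed. The change from 2 to 7 wks was 1.51 (adjusted p = 0.0727, edgeR), and 2.55 (adjusted p = 0.00374) without 2 wks replicate 3. Only the whole span passed, with a rise of 1.99 (adjusted p = 0.0078), which was 0.73 (adjusted p = 0.243) with total count scaling. *H2-Q5* rose by 2.67 and 2.24 in the 2 intervals (adjusted p = 0.011 and 0.030, edgeR). The first was 1.49 (adjusted p = 0.108) without 2 wks replicate 3. The second was 1.61 (adjusted p = 0.114) without 7 wks replicate 1 and was lost without 2 wks replicates 1, 2 or 4 or 7 wks replicate 4 (1.92 to 2.29, adjusted p of 0.0539 to 0.0913). *H2-Q10*, which encodes a secreted protein known from liver, had 5 to 82 reads in a library and changes of −0.03, 0.92 and 0.89 in the 3 comparisons, none of them called (95% interval over the whole span −0.10 to 1.89). Without E18.5 replicate 4 the change over the whole span was 1.34 (adjusted p = 0.0205).

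*H2-M5* was the only member that fell. It stood at 1.32, 1.44, 1.08 and 0.818 CPM at E18.5, at 0.436, 0.474, 0.288 and 0.170 CPM at 2 wks, and at 0.120, 0.155, 0.138 and 0.0990 CPM at 7 wks. The 3 ages did not overlap. It fell by 1.76 by 2 wks (SE 0.33, adjusted p = 0.000325, edgeR), by 1.40 from 2 to 7 wks (SE 0.38, adjusted p = 0.0136) and by 3.17 over the whole span (adjusted p = 3.67e-06). The later fall was −1.19 (adjusted p = 0.0517) without 2 wks replicate 2, and its counts at 7 wks were 6 to 10 reads a library. Its exons share 139 bases (4.61%) on the opposite strand with *Zfp57*, which had 18627 reads over the 12 libraries against 961 for *H2-M5*. Its promoter, printed above, held none of the 5 motifs.

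*B2m* had smaller fold changes than *H2-D1* and *H2-K1*. It stood at 66.2, 61.0, 71.7 and 61.3 CPM at E18.5, at 65.1, 82.1, 129 and 91.1 CPM at 2 wks, and at 107, 136, 98.5 and 99.6 CPM at 7 wks. The ranges at E18.5 and 2 wks overlapped, and those at E18.5 and 7 wks did not. With TMM scaling it rose by 0.50 by 2 wks (SE 0.19, adjusted p = 0.0323, edgeR) and by 0.76 over the whole span (adjusted p = 0.00249), but with total count scaling the same values were −0.45 (adjusted p = 0.032) and −0.52 (adjusted p = 0.0152). The first rise was 0.47 without E18.5 replicate 2 or E18.5 replicate 4, 0.51 without 2 wks replicate 4 and 0.30 without 2 wks replicate 3 (adjusted p of 0.053 to 0.138). Ratios within a library do not depend on the scaling. They were not corrected for GC content, which was 42.1% for *B2m* and 56.3% for *H2-K1*. *H2-K1* had 0.0776 to 0.186 reads per *B2m* read at E18.5, 0.425 to 0.515 at 2 wks, then 0.476 to 0.819 at 7 wks. Summed over the class I H2 genes and set per kilobase of transcript, heavy chains stood at 0.266 to 0.493 of the *B2m* level at E18.5, 0.995 to 1.22 at 2 wks, then 1.19 to 1.66 at 7 wks.

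The transport and loading genes rose before 2 wks. *Tap2* stood at 0.762, 2.31, 3.75 and 4.41 CPM at E18.5, at 11.9, 11.9, 16.3 and 16.4 CPM at 2 wks, and at 10.1, 14.4, 16.5 and 14.0 CPM at 7 wks. *Tap1* lay between 1.05 and 2.02 CPM at E18.5, between 4.46 and 7.19 CPM at 2 wks and between 3.65 and 8.42 CPM at 7 wks. For both genes the ages after birth overlapped each other and stood above E18.5. The log2 fold changes by 2 wks were 2.33 for *Tap2* (SE 0.39, adjusted p = 0.000161) and 1.75 for *Tap1* (SE 0.29, adjusted p = 0.00013, edgeR). From 2 to 7 wks both changed by −0.04 (95% intervals −0.84 to 0.77 and −0.64 to 0.56). *Tapbp* lay between 7.84 and 14.2 CPM at E18.5, between 30.1 and 32.2 CPM at 2 wks and between 25.6 and 39.7 CPM at 7 wks. It rose by 1.45 by 2 wks (SE 0.19, adjusted p = 1.71e-05), which was 0.26 (adjusted p = 0.149) with the GC trend removed, and then changed by 0.05 (95% interval −0.34 to 0.44). Of its exon bases, 20.9% lie in *Zbtb22* on the same strand. The first change exceeded the second by 2.36 for *Tap2*, 1.79 for *Tap1* and 1.40 for *Tapbp* (adjusted p of 0.0104, 0.0101 and 0.00381), and with the GC trend removed by 0.97 (adjusted p = 0.191), 0.52 (adjusted p = 0.381) and, with the sign turned, −0.12.

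*Nlrc5*, the class I activator, was not called by 2 wks. It stood at 0.457, 0.973, 1.51 and 0.883 CPM at E18.5, at 0.419, 0.350, 1.33 and 0.719 CPM at 2 wks, and at 2.33, 3.20, 1.04 and 1.14 CPM at 7 wks. All 3 ages overlapped. The change by 2 wks was −0.45 (95% interval −1.49 to 0.60, adjusted p = 0.432, edgeR), and with total count scaling it was a fall of −1.43 (adjusted p = 0.0156). It rose by 1.45 from 2 to 7 wks (adjusted p = 0.0424), and this was not called without any 1 of E18.5 replicate 4, 2 wks replicates 1, 2 and 4, and 7 wks replicates 1 and 2 (1.09 to 1.46, adjusted p of 0.0518 to 0.145). Over the whole span the change was 1.01 (95% interval −0.02 to 2.03) and was called without E18.5 replicate 3 (1.31, adjusted p = 0.0364) or 7 wks replicate 3 (1.22, adjusted p = 0.0443).

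Levels were compared between genes as CPM per kilobase of the canonical transcript. *B2m* was first at each age, with means of 59.9 ± 4.62 (SD, n = 4) at E18.5, 84.5 ± 24.7 at 2 wks, then 102 ± 16.0 at 7 wks, and its range did not meet that of the next gene. *H2-D1* and *H2-K1* followed, at 7.54 ± 2.13 and 5.70 ± 1.90 at E18.5, 36.2 ± 8.73 and 27.1 ± 8.30 at 2 wks, then 43.3 ± 6.82 and 41.2 ± 5.92 at 7 wks, and their ranges overlapped each other at each age. At E18.5 *H2-T22* was the fourth gene (4.86 ± 0.857), and its range overlapped that of *H2-K1*. At 2 and 7 wks *Cd74* was the fourth (13.1 ± 4.60 and 20.8 ± 6.06), ninth at E18.5 with 1.54 ± 0.795, and its range overlapped that of *H2-Aa*, the fifth. With the union of all annotated exons as the length, a choice made after seeing the data, *B2m*, *H2-D1* and *H2-K1* were again ranks 1 to 3 at each age, and *H2-Aa* ranked 11 at 2 and 7 wks. *H2-D1* and *H2-K1* together made up 46.4 to 55.3% of the summed class I H2 level per kilobase at E18.5, 67.5 to 70.3% at 2 wks, then 54.7 to 68.0% at 7 wks. The share of *H2-T22* was 18.3 to 22.1%, 7.55 to 10.1% and 8.74 to 9.57%.

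Class II genes were scarce before birth and rose by 2 wks. *Cd74* stood at 0.652, 2.94, 3.16 and 2.05 CPM at E18.5, at 14.3, 17.6, 14.7 and 28.4 CPM at 2 wks, and at 33.5, 22.8, 40.2 and 22.4 CPM at 7 wks. The highest library at E18.5 (3.16 CPM) was well below the lowest at 2 wks (14.3 CPM), and the libraries at 2 and 7 wks overlapped. It rose 8.49-fold by 2 wks (log2 fold change 3.09, SE 0.41, adjusted p = 2.34e-05, edgeR) and 13.5-fold by 7 wks. The change from 2 to 7 wks was 0.67 (95% interval −0.15 to 1.49, adjusted p = 0.211), and 0.88 (adjusted p = 0.0444) with the GC trend removed. The first change exceeded the second by 2.42 (adjusted p = 0.010), and by 1.89 (adjusted p = 0.0535) without 2 wks replicate 4.

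The chains of the H2-A molecule also rose. *H2-Ab1* stood at 0.270, 1.18, 1.16 and 0.668 CPM at E18.5, at 5.57, 7.08, 5.76 and 13.3 CPM at 2 wks, and at 10.3, 8.96, 17.4 and 9.57 CPM at 7 wks. *H2-Aa* stood at 0.638, 2.06, 3.56 and 2.43 CPM at E18.5, at 9.58, 11.6, 9.30 and 18.3 CPM at 2 wks, and at 24.9, 16.6, 25.5 and 13.7 CPM at 7 wks. Both genes were lowest in replicate 1 at E18.5 and highest at 2 wks in replicate 4, and the ages after birth overlapped. *H2-Ab1* rose by 3.27 (SE 0.44, adjusted p = 2.35e-05, edgeR) and *H2-Aa* by 2.48 (SE 0.41, adjusted p = 0.000144) by 2 wks. The later changes were 0.54 (95% interval −0.32 to 1.40) and 0.73 (95% interval −0.12 to 1.57). The first change exceeded the second by 2.73 for *H2-Ab1* (adjusted p = 0.00688). For *H2-Aa* the difference of 1.76 (adjusted p = 0.0492) was not called without any 1 of 9 libraries (1.24 to 2.00, adjusted p of 0.0535 to 0.203), those other than E18.5 replicates 1 and 3 and 7 wks replicate 3.

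*H2-Eb1*, the beta chain of H2-E, stood at 0.568, 1.48, 2.06 and 1.65 CPM at E18.5, at 7.11, 7.70, 7.16 and 13.2 CPM at 2 wks, and at 14.8, 12, 20.4 and 10.5 CPM at 7 wks. It rose by 2.61 by 2 wks (SE 0.36, adjusted p = 2.97e-05, edgeR), and the later change was 0.71 (95% interval −0.01 to 1.44, adjusted p = 0.132). Its difference between both changes was 1.89 (adjusted p = 0.019), and 1.37 (adjusted p = 0.0993) without 2 wks replicate 4. The alpha chain *H2-Ea*, the partner of *H2-Eb1*, had 0 reads in each of the 12 libraries. A count of 3 reads, the limit that a count of 0 allows, corresponds to 0.0243 to 0.0476 CPM of the library total, and this covers counting error only. *H2-Ea* is known not to be made in mice of the H2b haplotype.

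**Figure D3:**
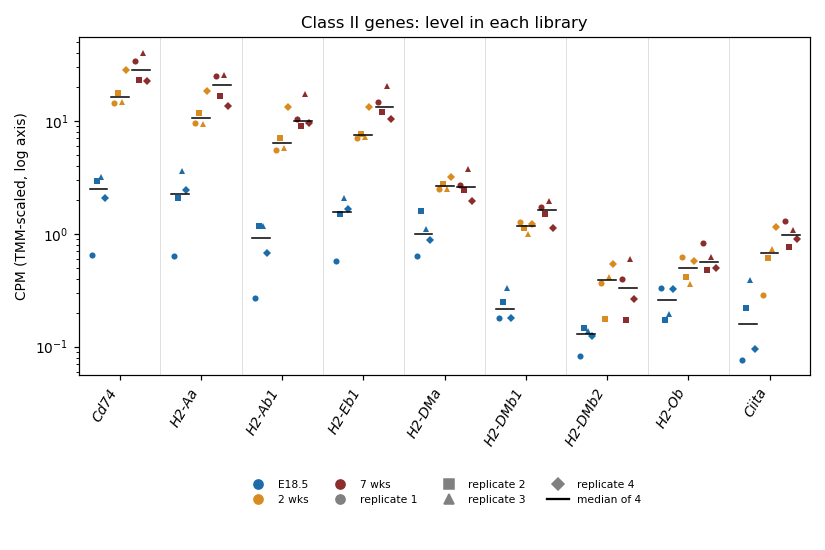
TMM-scaled CPM on a log axis for the 9 class II genes tested, with 1 point per library, colour for age, shape for replicate and a bar at the median of 4. *Cd74*, *H2-Aa*, *H2-Ab1* and *H2-Eb1* stood higher in every library at 2 and 7 wks than at E18.5, and for each of the 9 genes the libraries at 2 and 7 wks overlapped.

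All 3 H2-DM genes rose by 2 wks. *H2-DMa* stood at 0.638, 1.59, 1.10 and 0.888 CPM at E18.5, at 2.50, 2.75, 2.49 and 3.16 CPM at 2 wks, and at 2.73, 2.44, 3.71 and 1.93 CPM at 7 wks. It rose by 1.37 by 2 wks (SE 0.28, adjusted p = 0.000773, edgeR) and changed by −0.01 afterwards (95% interval −0.61 to 0.59). *H2-DMb1* lay between 0.180 and 0.332 CPM at E18.5, between 1.0 and 1.26 CPM at 2 wks and between 1.12 and 1.93 CPM at 7 wks, and rose by 2.28 by 2 wks (SE 0.27, adjusted p = 9.55e-06). *H2-DMb2* had 11 to 41 reads in a library and rose by 1.58 by 2 wks (adjusted p = 0.00475). *H2-DMa* shares 11.8% of its exon bases on the opposite strand with *Brd2*, which had 127877 reads against 2262. The level of *H2-DMa* per kilobase of the canonical transcript was 4.05 to 7.77 times that of *H2-DMb1* at E18.5, 2.42 to 3.14 times at 2 wks, then 1.93 to 2.34 times at 7 wks. This order depended on the length used. With the union of all annotated exons as the length, the mean of *H2-DMa* was 0.243 CPM per kilobase at E18.5, against 0.140 for *H2-DMb1*. The same means were 0.629 and 0.685 at 2 wks, then 0.624 and 0.932 at 7 wks. *H2-Ob*, a chain of H2-O, rose by 0.93 by 2 wks (SE 0.32, adjusted p = 0.0195) with TMM scaling, but by 0.02 (adjusted p = 0.966) with total count scaling. The call was also lost without E18.5 replicate 2 or 3 or 2 wks replicate 1 or 4 (0.79 to 0.85, adjusted p of 0.0504 to 0.057). Its partner *H2-Oa* had 59 reads in all and *H2-Eb2* had 7, and neither was tested.

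*Ciita*, the class II activator, stood at 0.0762, 0.220, 0.390 and 0.0948 CPM at E18.5, at 0.285, 0.608, 0.739 and 1.14 CPM at 2 wks, and at 1.30, 0.761, 1.07 and 0.891 CPM at 7 wks. The lowest library at 2 wks lay within the range at E18.5, and all libraries at 7 wks were above that range. It rose by 1.81 by 2 wks (SE 0.50, adjusted p = 0.00567, edgeR), which was 0.82 (adjusted p = 0.141) with total count scaling, and by 2.34 over the whole span (adjusted p = 0.000861). The libraries behind these values had 11 to 87 reads on *Ciita*.

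Proportions among class II genes were taken within libraries. *Cd74* stood at 2.04 to 2.60 times *H2-Ab1* per kilobase at E18.5, 1.81 to 2.17 times at 2 wks, then 1.96 to 2.76 times at 7 wks. *H2-Ab1* stood at 0.403 to 1.0 times *H2-DMa* at E18.5, 2.12 to 3.99 times at 2 wks, then 3.49 to 4.71 times at 7 wks. The first ratio overlapped between all ages, the second did not overlap between E18.5 and the later ages, and neither was tested. The size of the second depended on the length used. With the union of all annotated exons, the mean of *H2-Ab1* at E18.5 was 0.319 CPM per kilobase, above the 0.243 of *H2-DMa*. The same means were 3.08 and 0.629 at 2 wks, then 4.49 and 0.624 at 7 wks. The summed class II level was 2.45 to 9.02 CPM per kilobase at E18.5, 30.9 to 59.1 at 2 wks, then 44.8 to 82.5 at 7 wks.

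Markers of leukocytes and macrophages were set beside the class II values. Counts of markers called, here and below, stand beside the shares of all genes called. These were 31.5% higher and 34.2% lower by 2 wks and 13.5% and 13.9% from 2 to 7 wks. Over the whole span they were 34.3% and 37.1%. In bulk muscle, fewer cells of a type and less RNA per cell cannot be told apart. The summed level of 4 leukocyte markers was 25.7 to 40.7 CPM at E18.5, 14.8 to 18.1 CPM at 2 wks and 7.22 to 13.6 CPM at 7 wks. *Ptprc*, which encodes the pan-leukocyte antigen CD45, stood at 9.83, 7.86, 11.2 and 8.07 CPM at E18.5, at 2.06, 2.64, 2.55 and 2.10 CPM at 2 wks, and at 3.61, 2.49, 1.81 and 1.86 CPM at 7 wks, and it fell by 1.98 by 2 wks (SE 0.24, adjusted p = 9.09e-06, edgeR). Of the 4 markers 2 fell by 2 wks, *Ptprc* and *Cd53* (by 1.88, adjusted p = 0.000187), while *Coro1a* was at −0.15 (adjusted p = 0.668) and *Laptm5* at −0.65 (adjusted p = 0.0656). Over the whole span 4 of 4 fell. Within a library, *Cd74* had 0.0663 to 0.374 reads per *Ptprc* read at E18.5, 5.77 to 13.5 at 2 wks, then 9.16 to 22.2 at 7 wks. Per read of *Adgre1*, the macrophage antigen F4/80, the values were 0.0283 to 0.153, 3.53 to 10 and 5.55 to 24.8. *Ptprc* and *Adgre1* themselves fell. Per read of *Coro1a*, which was not called by 2 wks, *Cd74* had 0.277 to 0.662 reads at E18.5, 3.62 to 6.89 at 2 wks, then 10.8 to 15.2 at 7 wks. Per read of *C1qa*, a complement gene of macrophages that rose by 2 wks, it had 0.208 to 0.510, 0.793 to 2.50 and 4.62 to 7.99. In each of these 4 ratios the libraries at E18.5 lay below all later ones. The ratios were not tested.

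**Figure D4:**
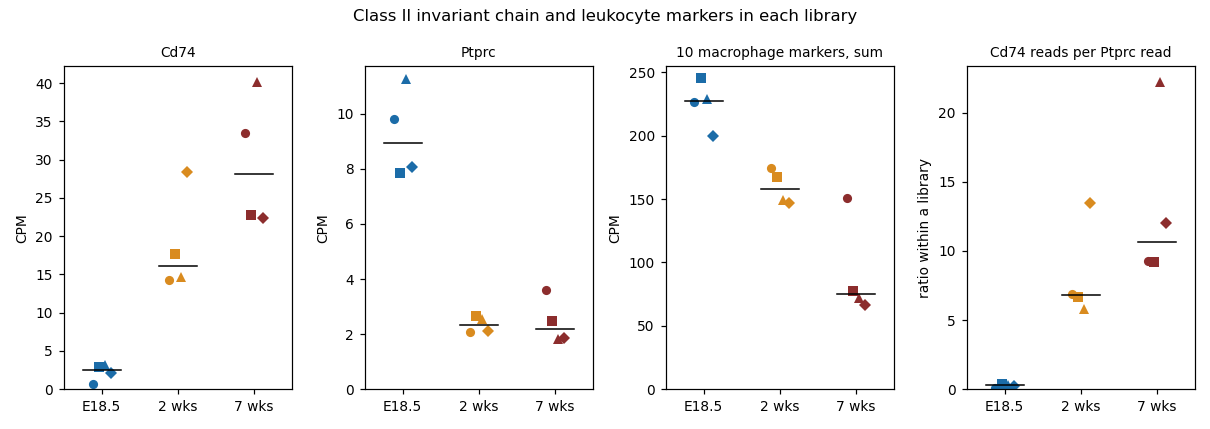
Levels of *Cd74*, of *Ptprc* and of 10 macrophage markers summed (TMM-scaled CPM), and *Cd74* reads per *Ptprc* read, with 1 point per library (shape for replicate, as in the plots of levels), ages on the x axis and a bar at the median of 4. *Cd74* was higher and *Ptprc* lower after birth in every library, the macrophage sum, 40.6 to 57.6% of it *Mrc1* at E18.5, was lower, and the ratio went from at most 0.374 at E18.5 to at least 5.77 afterwards.

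The 10 macrophage markers summed to 200.1 to 245.8 CPM at E18.5, 146.9 to 174.8 CPM at 2 wks and 66.2 to 150.6 CPM at 7 wks. The mannose receptor *Mrc1* made up 40.6 to 57.6% of this sum at E18.5, and without it the other 9 markers summed to 96.0 to 146.1 CPM at E18.5, 118.7 to 140.0 CPM at 2 wks and 60.7 to 127.4 CPM at 7 wks, with overlap between all ages. Of all 10 markers, *Mrc1* included, 3 rose and 3 fell by 2 wks. From 2 to 7 wks 7 fell (5 without 7 wks replicate 2), and over the whole span 1 rose and 8 fell. *Adgre1* and *Mrc1* fell by 2.40 and 1.77 by 2 wks (adjusted p = 0.000186 and 0.000529, edgeR), while *C1qa* rose by 1.29 (adjusted p = 0.00484). The rise of *C1qa* was 0.37 (adjusted p = 0.355) with total count scaling and 0.13 (adjusted p = 0.717) with the GC trend removed. The 9 dendritic cell markers summed to 13.9 to 23.5 CPM at E18.5, 16.4 to 18.9 CPM at 2 wks and 13.6 to 17.9 CPM at 7 wks. This sum was mainly *Zbtb46*, a transcription factor listed here as a marker of classical dendritic cells, with 66.3 to 91.2% of it in a library. Which cells made the *Zbtb46* RNA was not tested. In every library of an age, 6 to 7 of the 9 genes were below 1 CPM. Of these, 5 had too few reads to be tested (*Flt3*, *Xcr1*, *Clec9a*, *Cd209a* and *Ccr7*), and by 2 wks 0 of the other 4 were called by edgeR (0 at an unadjusted p under 0.05, 0 with DESeq2). Markers of B cells summed to 0.825 to 1.45, 1.25 to 2.42 and 0.854 to 1.37 CPM at the 3 ages, and those of T and NK cells to 1.64 to 3.05, 0.836 to 1.33 and 0.689 to 1.0 CPM. Of 4 monocyte markers 2 fell and of 4 neutrophil markers tested 4 fell by 2 wks, *S100a8* by 4.72 and *S100a9* by 4.70 (adjusted p = 8.31e-06 and 7.73e-06). The part of these cells in the class II values was not tested.

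Endothelial cells, which make class I, had summed marker levels of 365.9 to 541.3 CPM at E18.5, 911.3 to 1091.7 CPM at 2 wks and 590.1 to 897.4 CPM at 7 wks. Of the 8 markers 6 rose by 2 wks, among them *Cdh5* (1.64, adjusted p = 1.02e-05, edgeR) and *Tie1* (2.31, adjusted p = 8.33e-06). Later, from 2 to 7 wks, 3 fell (*Cdh5* by 0.77, adjusted p = 0.0102). Of 6 fibroblast markers 1 rose and 3 fell by 2 wks, and of 7 red blood cell markers 2 fell. The part of these cell types in the class I values was not tested.

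Other genes of the pathway were taken from lists, whose counts by 2 wks stand beside 65.7% of all genes called (31.5% higher, 34.2% lower). Of 10 genes that supply and load class I peptides, 6 rose and 3 fell by 2 wks (90% called). The subunits of the immunoproteasome, which cuts proteins for presentation, rose: *Psmb8* by 2.27, *Psmb9* by 2.38 and *Psmb10* by 2.63 (adjusted p of 1.16e-05, 1.99e-05 and 9.34e-06, edgeR). The general chaperones of the loading complex fell: calreticulin (*Calr*) by 0.44 (0.37 without 2 wks replicate 4, adjusted p = 0.0548), calnexin (*Canx*) by 1.11 and ERp57 (*Pdia3*) by 1.65 (adjusted p of 0.0142, 0.00015 and 1.52e-05). *Psmb9* shares a stretch of exon with *Tap1* on the opposite strand, 12.4% of the exon bases of *Tap1*. Of 8 genes of class II processing and transcription 4 rose and 2 fell (75% called), with the protease *Ctss* down by 0.74 (adjusted p = 0.0131) and the thiol reductase *Ifi30* up by 0.79 (adjusted p = 0.0148) with TMM scaling but at −0.12 with total count scaling. Of 4 co-stimulation genes *Cd40* rose by 1.16, *Cd86* fell by 1.68 and *Cd83* fell by 1.52 (adjusted p of 0.000853, 0.000469 and 0.00412). With total count scaling *Cd40* was at 0.23 (adjusted p = 0.421).

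Of 11 class I-like genes outside the H2 complex 9 were tested, and by 2 wks 3 rose and 2 fell, so that 55.6% were called against 65.7% of all genes. The neonatal Fc receptor *Fcgrt*, which carries antibodies across cells, rose by 1.33, the iron regulator *Hfe* by 1.57 and the protein C receptor *Procr* by 1.61 (adjusted p of 0.000417, 3.36e-06 and 7.11e-06, edgeR). With total count scaling *Fcgrt* was at 0.40 (adjusted p = 0.182). *Ulbp1*, a ligand of the activating receptor NKG2D, fell by 1.63 (adjusted p = 0.000318). *Mr1*, which presents vitamin metabolites, changed by 0.05 by 2 wks (95% interval −0.62 to 0.72), a value whose sign depended on the scaling, and rose by 1.36 from 2 to 7 wks (adjusted p = 0.00671).

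Interferons are known inducers of MHC genes. Interferon gamma itself (*Ifng*) had 0 to 0.0401 CPM in a library and was not tested. Of 13 tested genes of interferon signalling 6 rose and 1 fell by 2 wks (53.8% called, against 65.7% of all genes), among them the receptor chain *Ifngr2* (1.41, adjusted p = 9.69e-07, edgeR) and the transcription factor *Irf1* (0.93, adjusted p = 0.000982). With total count scaling, however, 1 rose and 8 fell (2550 and 11923 of all 19276 genes), and *Irf1* was at −0.01. In the later interval 4 rose and 3 fell (13.5% and 13.9% of all genes), with *Jak2* up by 1.25 (adjusted p = 0.000147) and *Irf2* by 0.60 (adjusted p = 0.00498). Of 24 interferon-induced genes 9 rose and 2 fell by 2 wks (45.8% called) with TMM scaling, and 2 rose and 7 fell with total count scaling. In the later interval 7 rose (13.5% of all genes did).

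One library at 7 wks stood apart in the interferon-induced genes. Replicate 2 was the highest of the 4 libraries for 23 of the 24 genes, with a sum of 569.9 CPM against 167.1 to 239.1 CPM in the others. *Ifit3*, which encodes an antiviral protein, had 44.1 CPM there and 3.37 to 4.04 CPM in the other libraries. The cause was not tested. Without this library 3 of the 24 genes rose from 2 to 7 wks (1892 of 19937 over all genes). Over the whole span 12 rose and 2 fell without it (6408 and 7073 over all genes). With it 17 rose and 1 fell (34.3% and 37.1% of all genes). It was also the highest for 7 of the 18 class I and 0 of the 9 class II genes. Among the members *H2-T24* (51.7 CPM against 10.3 to 17.2), *H2-T23*, *Tap1* and *Nlrc5* were highest there, and *H2-D1*, *H2-K1*, *H2-Q6*, *Cd74* and *H2-Ab1* were not. Without it 3 class I genes rose and 1 fell from 2 to 7 wks (1892 and 2066 of 19937 over all genes), and 0 class II genes were called.

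**Figure D5:**
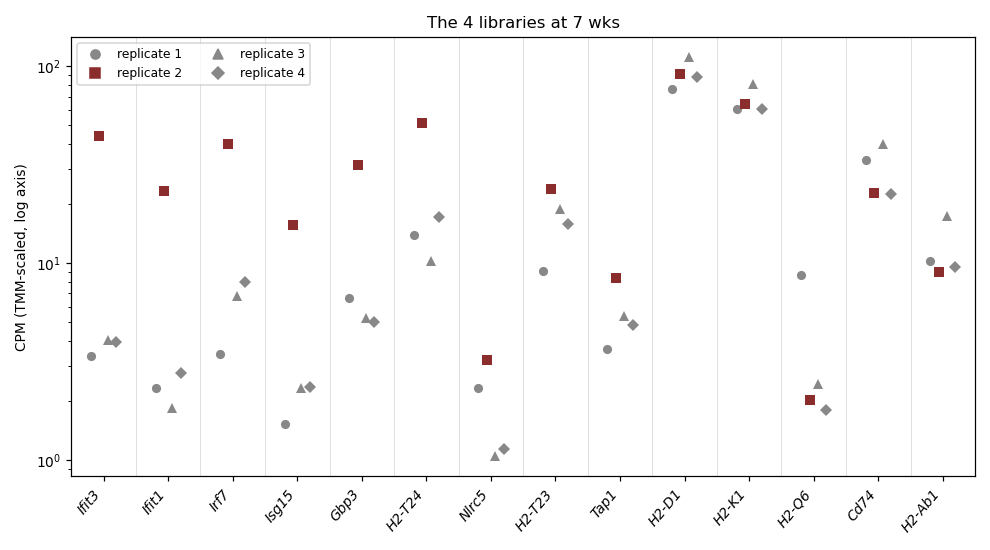
TMM-scaled CPM on a log axis in the 4 libraries at 7 wks for 5 interferon-induced genes and 9 members, with replicate 2 in red. Replicate 2 lay above the other 3 libraries for *Ifit3*, *Ifit1*, *Irf7*, *Isg15*, *Gbp3*, *H2-T24*, *H2-T23*, *Nlrc5* and *Tap1*, and within their range for *H2-D1*, *H2-K1*, *H2-Q6* and *Cd74*.

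Other libraries were also often the highest or lowest of their age. At 2 wks replicate 3 was the highest library for 14 of the 18 class I genes and for 0 of the 9 class II genes, and replicate 4 was the highest for 7 of the 9 class II and 3 of the 18 class I genes. At 7 wks replicate 3 was the highest for 7 of the 9 class II and 7 of the 18 class I genes. At E18.5 replicate 1 was the lowest for 11 of the 18 class I and 7 of the 9 class II genes. Without that library 12 class I genes rose and 1 fell by 2 wks, and 9 of 9 class II genes rose. Of all 19556 genes in that fit 5911 rose and 6358 fell.

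The remaining 20 members had too few reads to be tested. Of these, 9 had 0 reads in every library: *H2-M10.1* to *H2-M10.6*, a family known from the vomeronasal organ, *H2-Q2*, *H2-T3*, which encodes the thymus leukaemia antigen, and *H2-Ea*. The other 11 had at most 69 reads over the 12 libraries and at most 29 in one, both for *H2-M2*. *H2-M2* had 0, 1, 26 and 29 reads in the libraries at E18.5 and 0 to 3 reads in each later library. *H2-M9* had 50 reads in all, *H2-T13* 54, *H2-T15* 19, *H2-T5* 17, *H2-T9* 8, *H2-M1* and *H2-M11* 3 each and *H2-Q1* 1.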

How the data were processed

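RNA from TA muscle (TRI Reagent, TruSeq Stranded mRNA kit) of 4 WT mice per age was sequenced, and the authors deposited 1 table of raw read counts per gene. Per the labels they used bcl2fastq 2.17.1.14, cutadapt 1.10, STAR 2.5.3a and HTSeq 0.6.1p1. The labels name build mm10 and the methods GRCm39. The table holds no coordinates, and the annotation behind the counts, the HTSeq mode and its use of strand are not given in the sources used here. Symbols, gene types, lengths and GC content came from GENCODE vM39 (GRCm39), which held 51477 of the 55450 gene IDs. The 3973 others had 0.0394% of the counts.

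Counts were tested with edgeR 4.0.16 (R 4.3.3, limma 3.58.1), with TMM scaling, filterByExpr (minimum count 10) and a quasi-likelihood fit of age over all 12 libraries. The filter removed 36174 genes and left 19276. The common biological coefficient of variation was 0.279. P-values were two-sided and Benjamini-Hochberg adjusted over all genes tested, with a threshold of 0.05, and intervals are 95%. Alternatives were DESeq2 1.42.0, total count and upper-quartile scaling, removal of a GC trend (GC known for 98.7% of genes tested), other filters, only the 8 libraries compared, a replicate block and each library left out. The tests were tried on simulated counts. The members and all gene lists were chosen with earlier results of these data known. Class I and class II members were described in turn, and other genes were named as examples of their lists. Promoter motifs were searched with Python 3.11.15. The replicates are separate mice.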

Additional observations from a re-analysis of the deposited data

Results flagged for a closer look

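Among 114 sets of 4 libraries of the same age (27 members and 11 other genes), 14 held a library far from the other 3. Chance gives about 1 in 20, or 5.7 sets. The genes share the same libraries and were chosen with earlier results of these data known, so 14 against 5.7 is no test. Of the 14, 6 were replicate 2 at 7 wks: *H2-T24* at 51.7 CPM (others 10.3 to 17.2), *Irf7* at 40.3 (3.45 to 8.05), *Ifit1* at 23.3 (1.84 to 2.75), *Ifit3* at 44.1 (3.37 to 4.04), *Isg15* at 15.5 (1.52 to 2.34) and *Gbp3* at 31.3 (5.03 to 6.62).

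The Q region genes gave 4 such values. At 2 wks replicate 3 was high, with *H2-Q5* at 0.424 CPM (others 0.0335 to 0.0915) and *H2-Q7* at 1.74 (0.235 to 0.457). At 7 wks replicate 1 was high, with *H2-Q6* at 8.67 CPM (1.80 to 2.42) and *H2-Q7* at 4.09 (0.978 to 1.50). At E18.5 replicate 1 was low, with *H2-D1* at 9.23 CPM (others 17.7 to 18.9) and *H2-T22* at 6.49 (9.49 to 9.77). In class II, *H2-Eb1* was high in 2 wks replicate 4 at 13.2 CPM (others 7.11 to 7.70), and *H2-Ab1* was high in 7 wks replicate 3 at 17.4 CPM (8.96 to 10.3).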

How the results depend on the processing

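Counts of class I genes called from 2 to 7 wks (8) were 3 with total count scaling, 5 with upper-quartile scaling, 5 with at least 10 counts in every library, and 1 to 10 with 1 library left out. Over all genes the calls (5296) were 6340, 5188, 4415 (of 14582) and 3472 to 6145 in the same order. For the difference between the intervals, class I gave 4 with total count scaling and 2 with the GC trend removed, and class II gave 3, 2 and, with 1 library left out, 2 to 7. Class II counts by 2 wks and over the whole span were 5 and 5 with total count scaling, and from 2 to 7 wks 1 with the GC trend removed and 0 to 1 with 1 library left out. Counts with 1 library left out ran from 12 to 15 and 16 to 17 for class I and from 8 to 9 and 9 to 9 for class II by 2 wks and over the whole span, and from 6 to 8 for class I in the difference between the intervals.

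The sign turned with total count scaling by 2 wks for *H2-Q7* (−0.49), *H2-T22* (−0.23), *B2m* (−0.45), *Ifi30* (−0.12), *Mr1* (−0.91) and *Irf1* (−0.013), from 2 to 7 wks for *H2-D1* (−0.076), *H2-M3* (−0.10), *B2m* (−0.064), *Tapbp* (−0.30) and *H2-Ob* (−0.046), and over the whole span for *H2-Q10* (−0.38), *B2m* (−0.52), *Nlrc5* (−0.28), *H2-Ob* (−0.030) and *Irf8* (−0.28). It turned with upper-quartile scaling for *Tapbp* from 2 to 7 wks (−0.055) and *Mr1* by 2 wks (−0.10), and for *Mr1* with DESeq2 (−0.0025) and with at least 10 counts in every library (−0.080). With the GC trend removed it turned for *H2-Q7* by 2 wks (−0.56), for *Tap1* (0.23), *Tap2* (0.27), *H2-DMa* (0.20) and *H2-DMb2* (0.016) from 2 to 7 wks, and for *Tapbp* in the difference between the intervals (−0.12). With 1 library left out, values on both sides of 0 ran from −0.40 to 0.43 for *H2-Q10*, −0.55 to 0.78 for *H2-Q7* and −0.18 to 0.28 for *Mr1* by 2 wks, and from −0.31 to 0.12 for *Tap1*, −0.14 to 0.086 for *Tap2*, −0.057 to 0.15 for *Tapbp*, −0.21 to 0.12 for *H2-DMa* and −0.42 to 0.19 for *H2-DMb2* from 2 to 7 wks. The causes were not tested.

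Deviations of libraries from their age mean were correlated between ages. Same-numbered libraries gave −0.28 to 0.51 (12 pairs, median 0.00019, 5 over 0.1). The other pairs gave −0.50 to 0.38 (36 pairs, median 0.014, 10 over 0.1). Of the 12 libraries, 6 were best with their own number. Whether the numbers mark pairs or batches was not tested. With a replicate block, class I counts were 14, 8, 17 and 7 and class II counts 9, 0, 9 and 5 in the 3 comparisons and the difference between the intervals. Genes with under 50 reads in a library, such as *H2-Q5*, *H2-Q10*, *H2-DMb2* and *Ciita*, are limited by depth.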
